A study of Mus musculus with 2 samples.

Results

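The 6 genes described here are Cav1 and Cav2, which encode caveolin-1 and caveolin-2, Cavin1, Cavin2 and Cavin3, which encode cavins, and Emp2, which encodes epithelial membrane protein 2. They were taken by symbol from the 32285 gene rows of the count matrices, and all 6 were found in both libraries. The libraries came from lungs of mice that carry Cdh16CreERT2, a tamoxifen-inducible Cre recombinase driven by the gene of the kidney-specific cadherin Cdh16, together with a floxed tdTomato reporter. One library was made at postnatal day 10 (P10) and 1 shortly before birth (E18.5), and both belong to the same labelled batch. The mothers of both had received tamoxifen from E12.5 on, either injected at 0.1 mg per kg of body weight or fed at 0.4 g per kg of food, and the route of each library is unknown from the sources used here. The reporter genotype is tdTomatoflox/flox in the sample labels and R26-tdTomatoflox/wt in the design text, and both libraries carry the label of an embryonic tissue. Red cells within the CD326-stained population were sorted (CD326 is the protein of Epcam), so the red mark records Cdh16 activity after tamoxifen, and transcripts were read from their 3' ends in droplets. The sources used here do not say how many animals were pooled. With 1 library per time point there is no replicate, no test was made, and all intervals are 95% intervals that cover counting error only.

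Caveolae are flask-shaped pits of the plasma membrane. Caveolins form their membrane scaffold, with Cav1 indispensable in most non-muscle cells and Cav2 its partner in mixed oligomers, while cavins form a coat on the cytoplasmic side, for which Cavin1 is needed and which Cavin2 and Cavin3 join. In the lung, caveolae are abundant in endothelial cells and in the flat alveolar type 1 (AT1) cells that make up most of the gas exchange surface, and scarce in the surfactant-producing alveolar type 2 (AT2) cells. Emp2 is a tetraspan membrane protein of the PMP22 family and is known as an abundant transcript of AT1 cells.

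Cav1 and Cav2 are neighbours on mouse chromosome 6. In GENCODE vM21 on GRCm38, Cav1 spans chr6:17306335-17341452 on the plus strand with 3 exons, and Cav2 spans chr6:17281185-17289115 on the same strand, also with 3 exons, with 17220 bp between the end of Cav2 and the start of Cav1. Cavin1 lies on the minus strand at chr11:100956733-100970887, Cavin2 on the plus strand at chr1:51289126-51302960, Cavin3 on the minus strand at chr7:105480083-105482300, each with 2 exons, and Emp2 on the minus strand at chr16:10281749-10313968 with 5 exons. The antisense gene Gm15581 overlaps Cav1 and Cav2 and had 236 UMIs at P10 and 676 at E18.5 in the cells kept. The antisense gene 9330175M20Rik overlaps Cavin2 and had 211 UMIs at P10 and 439 at E18.5. The sources used here do not state whether counting used the strand, so reads of these pairs may not be told apart.

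The 250 bases before the transcription start are shown for 5 of the 6 genes, all 6 of which were higher in AT1 than in AT2 classes. Cavin3 had no entry among the promoter sequences used. The sequences are from RefSeq on GRCm38.p6, written 5′ to 3′ on the strand of the gene, with the first listed start site where there are several. The RefSeq start of Cavin1 differs from the GENCODE start given above, so its window lies inside the GENCODE span of the gene. Capitals mark matches, on either strand, to a GC box (GGGCGG), a TEAD site (CATTCC), an AP-1 site (TGANTCA) or a TATA box (TATAAA). None of these motifs overlaps another in the windows shown.
Cav1, chr6:17306085-17306334: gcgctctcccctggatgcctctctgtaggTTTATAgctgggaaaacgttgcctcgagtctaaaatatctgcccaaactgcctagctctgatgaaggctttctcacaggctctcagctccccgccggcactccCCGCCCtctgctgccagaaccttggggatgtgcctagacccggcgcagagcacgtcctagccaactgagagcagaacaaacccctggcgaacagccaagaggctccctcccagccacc
Cav2, chr6:17280935-17281184: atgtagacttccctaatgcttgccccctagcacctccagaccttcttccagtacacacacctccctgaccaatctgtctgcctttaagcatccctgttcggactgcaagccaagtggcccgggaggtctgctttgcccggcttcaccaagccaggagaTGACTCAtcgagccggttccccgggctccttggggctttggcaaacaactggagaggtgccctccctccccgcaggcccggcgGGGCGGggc
Cavin1, chr11:100970618-100970867: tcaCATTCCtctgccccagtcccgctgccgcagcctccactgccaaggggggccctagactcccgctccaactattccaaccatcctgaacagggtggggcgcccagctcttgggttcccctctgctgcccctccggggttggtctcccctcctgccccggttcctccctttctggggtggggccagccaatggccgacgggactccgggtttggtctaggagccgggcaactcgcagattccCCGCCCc
Cavin2, chr1:51288876-51289125: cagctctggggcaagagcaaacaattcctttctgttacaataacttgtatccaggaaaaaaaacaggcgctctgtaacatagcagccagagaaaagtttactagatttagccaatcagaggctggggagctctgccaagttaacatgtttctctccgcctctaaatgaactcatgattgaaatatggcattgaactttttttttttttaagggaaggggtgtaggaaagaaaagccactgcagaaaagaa
Emp2, chr16:10313969-10314218: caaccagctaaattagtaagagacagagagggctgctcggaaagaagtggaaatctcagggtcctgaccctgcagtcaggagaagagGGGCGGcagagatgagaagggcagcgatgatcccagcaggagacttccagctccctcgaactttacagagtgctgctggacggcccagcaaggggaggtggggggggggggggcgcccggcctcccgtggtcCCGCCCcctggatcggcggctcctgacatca
A GC box match stood in the windows of Cav1, Cav2, Cavin1 and Emp2, and in 32.9% of 27025 promoter windows of the same length. The Cavin2 window held none of the 4 motifs and had 40.4% G and C, against a median of 52% over all windows. The AP-1 match of Cav2 (6.87% of all windows), the TEAD match of Cavin1 (12.6%) and the TATA match of Cav1 (13%) were each found in 1 of the 5 windows. These are matches of letters and say nothing on binding.

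A minimum of 500 genes and 1000 UMIs (unique molecular identifiers, each counting 1 captured transcript) and a limit of 20% mitochondrial UMIs left 14086 cells with a median of 10250.5 UMIs at P10 and 12027 cells with a median of 8959 UMIs at E18.5. The libraries shared 59 cell barcodes. Cells were clustered within each library without the 6 genes, and clusters were named from markers as "like" a cell type. The label of both samples is alveolar epithelial cells, and both libraries also held endothelial-like, mesenchymal-like and blood cell-like clusters in spite of the sort. AT2-like clusters held 8754 cells at P10 and 1107 at E18.5. At E18.5, 3724 cells were AT1-like and 3433 carried both programmes. At P10 no cluster was purely AT1-like, and the 46 cells of the cluster with the highest AT1 marker level, led by Rtkn2 and Hopx, also gave 11.9% of their UMIs from AT2 markers and are called AT1-leaning. Endothelial-like cells numbered 412 at P10 and 322 at E18.5, and mesenchymal-like cells (fibroblast-like, pericyte or smooth muscle-like, and at E18.5 a cluster both fibroblast-like and mesothelial-like) 479 at P10 and 763 at E18.5.

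In endothelial-like, mesenchymal-like and myeloid-like cells, AT1 marker RNA was higher at E18.5 and AT2 marker RNA was higher at P10. In endothelial-like cells AT1 markers gave 0.163% of UMIs at P10 and 0.68% at E18.5. AT2 markers gave 7.21% of their UMIs at P10 and 4.5% at E18.5. Alveolar RNA was present in cells of every class. Its level was read in blood cells that should lack these genes, 698 lymphoid-like cells at P10 (median 3914.5 UMIs) and 65 neutrophil-like cells at E18.5 (median 2109 UMIs), and is called the free-RNA level. Those of P10 are only the lymphoid-like clusters with low alveolar marker levels (2.54% of UMIs from AT2 markers), and below, lymphoid-like cells means these. The neutrophil-like cells of P10 (8.24%) were not used. Levels are given in CPM, the UMIs of a gene per 1000000 UMIs of the summed cells of a class. The 12 AT1 markers were all detected in these blood cells, at a summed level of 367 CPM at P10 and 2762 CPM at E18.5, against 13550 CPM in AT1-leaning cells of P10 and 22686 CPM in AT1-like cells of E18.5. No AT1 marker was at 0 in any of the AT2-like, endothelial-like, mesenchymal-like or blood cell sums. Cav1 itself had a free-RNA level of 4.75 CPM (95% interval 2.66 to 7.84) at P10 and 148 CPM (93.6 to 222) at E18.5. The choice of clusters lowers the P10 level. Over all T or NK-like cells of P10, Cav1 was at 7.47 CPM, Cavin1 at 11.2 CPM and Emp2 at 92.4 CPM. Over all B-like cells they were at 5.06, 10.5 and 81.4 CPM. The part of free RNA in the differences between time points was not tested, and its values stand beside each result.

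Cav1 was highest in endothelial-like and AT1-leaning cells at P10 and in AT1-like cells at E18.5. At P10 it reached 498 CPM (480 to 516) in endothelial-like cells and 446 CPM (394 to 503) in AT1-leaning cells, which did not differ beyond counting error, followed by fibroblast-like cells with 223 CPM and pericyte or smooth muscle-like cells with 94.1 CPM. AT2-like cells of P10 had 7.53 CPM (7.01 to 8.08), transitional-like cells (2241 cells led by Sprr1a and Areg) 8.37 CPM, and club and ciliated-like cells 8.59 CPM. At E18.5, Cav1 stood at 1092 CPM (1078 to 1106) in AT1-like cells, 1019 CPM (945 to 1098) in the fibroblast and mesothelial-like cluster and 943 CPM in endothelial-like cells, and neighbours in that order had overlapping intervals. It was at 534 CPM in pericyte or smooth muscle-like cells, 329 CPM in fibroblast-like cells and 96.3 CPM (90.4 to 102) in AT2-like cells, at the low end together with club and ciliated-like cells (97.4 CPM). Myeloid-like cells of E18.5 had 501 CPM (492 to 509), overlapping pericyte or smooth muscle-like cells and above fibroblast-like cells. AT1 markers gave 0.949% of their UMIs, against 0.276% in neutrophil-like cells, and the part of AT1 RNA in their level was not tested.

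Cav2, the partner of caveolin-1, had a similar order with a few departures. It was at 125 CPM in endothelial-like and 108 CPM in AT1-leaning cells at P10, and at 13.4 CPM (9.22 to 18.8) in fibroblast-like cells, which had high Cav1. At E18.5 AT1-like cells had 324 CPM and endothelial-like cells 200 CPM. Ciliated-like cells of E18.5 came next with 159 CPM (146 to 171), well above the free-RNA level of 51.4 CPM (22.2 to 101), while their Cav1 of 162 CPM did not differ from its free-RNA level.

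Among the cavins, Cavin1, which the coat requires, was spread over mesenchymal, endothelial and AT1 classes. At P10 fibroblast-like cells had 148 CPM, endothelial-like cells 123 CPM, AT1-leaning cells 115 CPM and pericyte or smooth muscle-like cells 89.7 CPM, and at E18.5 the fibroblast and mesothelial-like cluster had 265 CPM, AT1-like cells 190 CPM and endothelial-like cells 157 CPM. Cavin2, which binds phosphatidylserine, was led by endothelial-like cells at P10, with 637 CPM (617 to 657), and by AT1-like cells at E18.5, with 535 CPM. Endothelial-like cells of E18.5 had 310 CPM and myeloid-like cells 230 CPM of it. Cavin3, which binds protein kinase C delta, was led by the mesenchyme at P10. Fibroblast-like cells of P10 had 127 CPM and pericyte or smooth muscle-like cells 112 CPM. At E18.5 the fibroblast and mesothelial-like cluster of 56 cells led with 249 CPM. Pericyte or smooth muscle-like cells of E18.5 (164 CPM) overlapped AT1-like cells (156 CPM). Fibroblast-like cells of E18.5 (100.5 CPM) were below AT1-like and endothelial-like cells (127 CPM).

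Emp2 was highest in AT1 classes of both libraries, with 1034 CPM (954 to 1119) in AT1-leaning cells of P10 and 1962 CPM in AT1-like cells of E18.5. AT2-like cells of P10 also had 169 CPM (166 to 171), against a free-RNA level of 25 CPM (19.8 to 31.2). The E18.5 AT2-like level was 306 CPM against a free-RNA level of 199 CPM. Other blood cell-like classes of E18.5 were far above that level, with 871 CPM in myeloid-like and 689 CPM in erythroid-like cells, beside 634 CPM in endothelial-like cells.

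**Figure D1:**
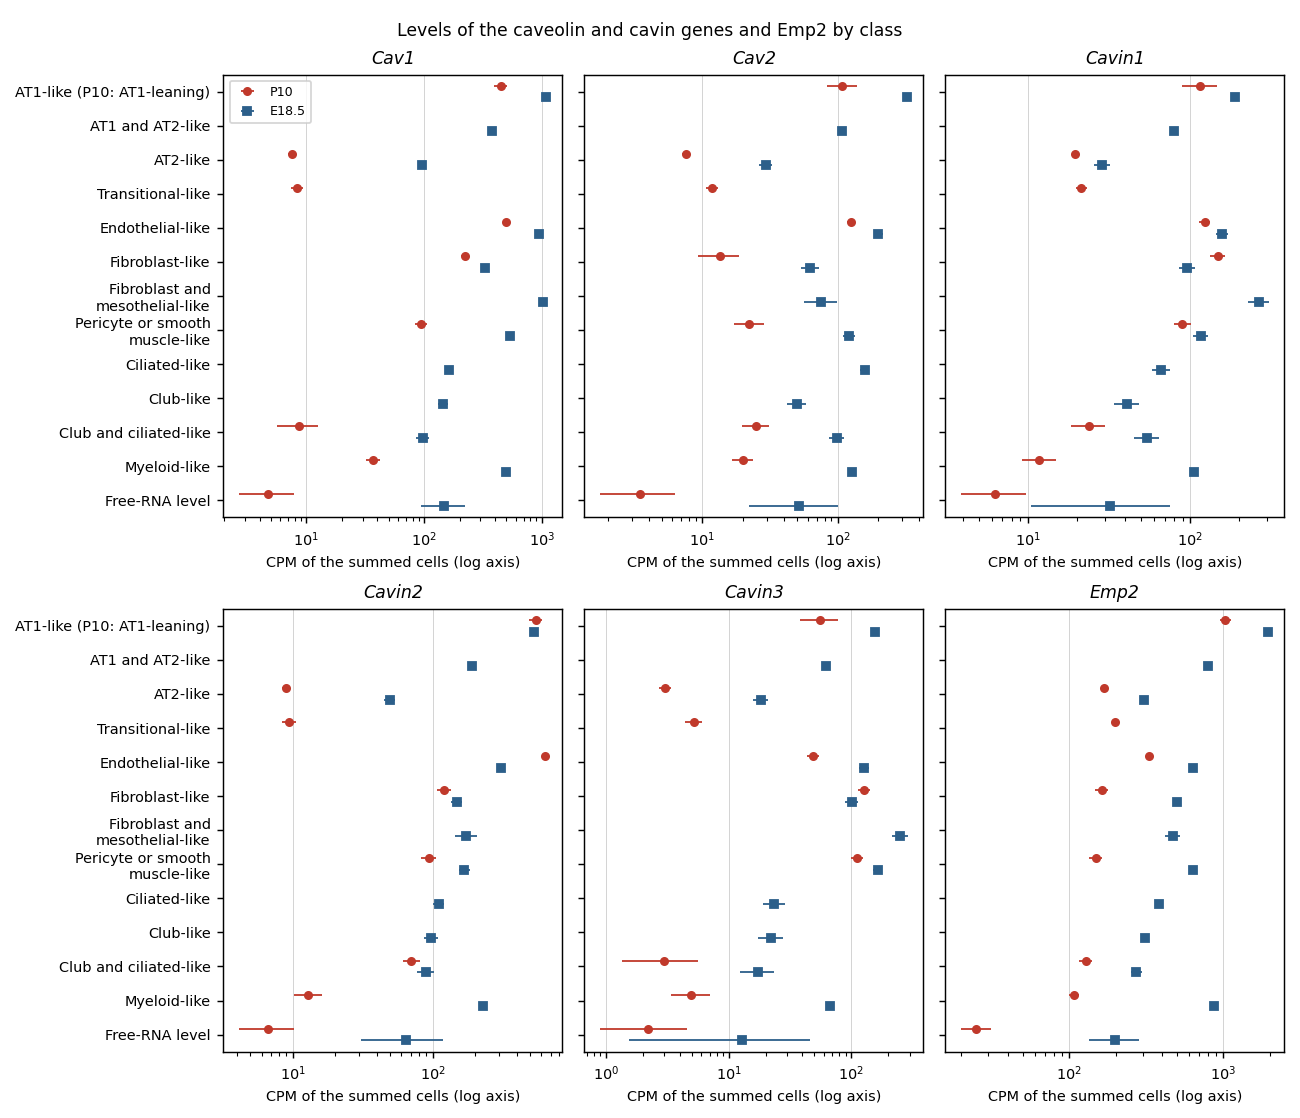
Level of each gene (CPM of the summed cells, log axis) by class, with P10 as red circles and E18.5 as blue squares. Bars are exact 95% Poisson intervals. Cav1 and Cavin2 spanned the widest range between classes at P10, from under 10 CPM in AT2-like cells to over 400 CPM in AT1-leaning and endothelial-like cells, and the AT2-like level of Cav1 was 7.53 CPM at P10 and 96.3 CPM at E18.5.

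Within E18.5, all 6 genes were at least 2 times higher in AT1-like than in AT2-like cells, against 15.8% of the 8442 genes measured at 10 CPM or more in either class (9.29% were lower by as much). For Cav1 the levels were 1092 CPM in AT1-like and 96.3 CPM in AT2-like cells, 11.3 times (10.6 to 12.1). Cav2 was 11 times, Cavin2 10.8 times, Cavin3 8.51 times, Cavin1 6.61 times and Emp2 6.40 times (6.18 to 6.64) higher. Scaling by the median gene shifted all ratios of this comparison by 0.27 on the log2 scale, after which the log2 ratios of the 6 genes lay between 2.41 (Emp2) and 3.23 (Cav1). The ratios depend on which cells count as AT2-like. When clusters with both programmes were added to that class, a choice made after seeing the data, the ratios were between 2.66 for Cavin1 and 3.37 for Cav2, and when single cells were assigned by marker UMIs they were between 4.13 for Emp2 and 6.03 for Cavin2. With the free-RNA level subtracted they were larger, 26.1 for Cavin3 and 16.4 for Emp2, and Cav1, Cav2, Cavin1 and Cavin2 had no value because nothing was left in AT2-like cells.

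At P10 all 6 genes were likewise at least 2 times higher in AT1-leaning than in AT2-like cells, as were 10.4% of 8814 genes (3.03% were lower). Cavin2 was at 547 CPM in AT1-leaning and 8.99 CPM in AT2-like cells, 60.9 times (53.5 to 69.2), and Cav1 was 59.3 times (51.3 to 68.2) higher. Cavin3 was 18.3 times and Cav2 14.2 times higher. For Cavin1 the ratio was 5.89 and for Emp2 6.13. With the free-RNA level subtracted the ratios were 232 for Cavin2, 159 for Cav1, 64.5 for Cavin3 and 25.4 for Cav2, over AT2-like remainders between 0.83 CPM (Cavin3) and 4.12 CPM (Cav2). Cavin1 and Emp2 were also the 2 genes whose AT2-like level at P10 was more than 2 times the free-RNA level among genes at 10 CPM or more, by 3.08 times (1.99 to 5.05) for Cavin1 and 6.74 times (5.41 to 8.52) for Emp2, where 19.8% of 9548 genes were higher and 29.6% lower by 2 times. Cav2, under 10 CPM in both, was 2.18 times (1.21 to 4.39) the free-RNA level, and the intervals of Cav1, Cavin2 and Cavin3 held 1. These ratios rest on lymphoid-like clusters picked for low alveolar RNA. Over all T or NK-like cells Cavin1 was at 11.2 CPM and Emp2 at 92.4 CPM, against 19.5 CPM and 169 CPM in AT2-like cells. The 46 AT1-leaning cells held 264 UMIs of Cav1 and 33 of Cavin3, which limits the precision. None of them was among the 5% of cells with the highest doublet scores, yet when those cells were left out and the rest clustered again, no cluster qualified as AT1-leaning.

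The AT2-like class had lower levels of 4 of the 6 genes at P10 than at E18.5 at a ratio of 2 or more, against 9.51% of 8372 genes lower and 14.6% higher by as much. Median-gene scaling shifted these ratios by 0.11 (log2). Cav1 had 7.53 CPM at P10 and 96.3 CPM at E18.5, a ratio of 0.0782 (0.0711 to 0.0860). The ratios were 0.166 for Cavin3, 0.182 for Cavin2 and 0.258 for Cav2, and stayed under 2 times for Emp2 (0.551) and Cavin1 (0.677). These 2 also passed 2 times lower with single cells assigned by marker UMIs (Emp2 0.408, Cavin1 0.485) and with cells of both programmes added to the AT2-like class of E18.5 (Emp2 0.236, Cavin1 0.272), which put Cav1 at 0.0224. The free-RNA level moved the same way, with a ratio of 0.0322 (0.0156 to 0.0644) for Cav1 and between 0.0678 and 0.197 for the others, where 16.2% of 9509 genes were at least 2 times lower and 53.7% higher in sums of 698 and 65 shallow cells. In AT2-like cells of E18.5, Cav1 was at 0.652 times the free-RNA level (0.432 to 1.03), and the intervals of Cav2, Cavin1, Cavin2 and Cavin3 against free RNA also held 1, where 44.5% of 8700 genes were higher and 19.9% lower by 2 times. With 2 to 23 free-RNA UMIs for these 5 genes, their levels could not be told apart from free RNA at this depth. Emp2 stood apart, at 1.54 times (1.08 to 2.27) free RNA. After subtraction of the free-RNA level, an alternative added after seeing the data, none of the 6 genes was called lower at P10. Cav1, Cav2, Cavin1 and Cavin2 were then left with nothing at E18.5, Cavin3 was under 10 CPM at both times, and Emp2 turned direction, with 144 CPM at P10 and 107 CPM at E18.5, a ratio of 1.34.

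In AT1 classes the genes did not move together between time points. Cav1 (0.409), Cav2 (0.334) and Cavin3 (0.357) were at least 2 times lower in AT1-leaning cells of P10 than in AT1-like cells of E18.5, as were 12.4% of 9032 genes (16.9% were higher). Cavin2 was nearly level, with 547 CPM in AT1-leaning cells of P10 and 535 CPM in AT1-like cells of E18.5, a ratio of 1.02 (0.914 to 1.14), and Cavin1 (0.603) and Emp2 (0.527) lay between. When single cells were assigned by marker UMIs, which left 33 cells at P10, none of the 6 was lower by 2 times and the ratios were 0.781 for Cav1, 0.604 for Cav2, 0.727 for Cavin3 and 1.79 for Cavin2. AT2 RNA in the AT1-leaning cluster (11.9% of UMIs, against 0.978% in AT1-like cells of E18.5) differed between the classes, and its part in these ratios was not tested.

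In mesenchymal-like cells 3 of the 6 genes were at least 2 times lower at P10, against 8.22% of 10064 genes lower and 13.8% higher. Cav1 was at 153 CPM at P10 and 492 CPM at E18.5 (ratio 0.310), Cav2 at 18.2 CPM at P10 and 90.3 CPM at E18.5 (0.202), and Emp2 at 155 CPM at P10 and 560 CPM at E18.5 (0.277). The cavins stayed closer, with Cavin1 at 0.945 (0.850 to 1.05), Cavin3 at 0.823 and Cavin2 at 0.666. Pericyte or smooth muscle-like cells had Cav1 at 94.1 CPM at P10 and 534 CPM at E18.5 (0.176), and 3 of the 6 genes lower, against 11.3% of 10019 genes lower and 17.2% higher. Fibroblast-like cells had Cav1 at 223 CPM at P10 and 329 CPM at E18.5 (0.677), and 2 of the 6 genes lower (Cav2 and Emp2), against 8.48% of 10002 genes lower and 16% higher. The mesothelial marker Upk3b was at 306 CPM in the fibroblast-like cells of P10 and 3.35 CPM in those of E18.5, where the separate fibroblast and mesothelial-like cluster had 779 CPM, and its part in these ratios was not tested. The difference between those ratios was not tested. AT1 markers summed to 979 CPM in mesenchymal-like cells of P10 and 5792 CPM in those of E18.5. The free-RNA level of E18.5 held 2762 CPM of them, less than these cells carried. In mesenchymal-like cells of E18.5, Cav2 per UMI of the AT1 marker Hopx was 0.0752 and Emp2 per Hopx 0.466, against 0.0655 and 0.397 in AT1-like cells. Cav1 per Hopx was 0.409 against 0.221. The part of AT1 RNA beyond the free-RNA level was not tested. With the free-RNA level subtracted, the same 3 genes remained lower, while Cavin1 (1.21) and Cavin2 (1.04) turned direction. With single cells assigned by marker UMIs Emp2 was at 0.501, just short of 2 times lower, and these 2 cavins were again higher at P10. Cavin1 then had 157 CPM at P10 and 109 CPM at E18.5 (1.44), and Cavin2 130 CPM at P10 and 73.2 CPM at E18.5 (1.78).

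In endothelial-like cells Cavin2 was at 637 CPM at P10 and 310 CPM at E18.5, 2.06 times higher (1.92 to 2.20), against 13.8% of 9778 genes higher by as much. With single cells assigned by marker UMIs its ratio was 2.92, and Cavin2 was then also higher at P10 in mesenchymal-like cells (1.78) and AT1 classes (1.79), short of 2 times. Cavin3 was lower, with 48.9 CPM at P10 and 127 CPM at E18.5 (ratio 0.384), as were 8.15% of genes. Cav1 (0.528), Emp2 (0.523), Cav2 (0.626) and Cavin1 (0.783) were lower at P10 by less than 2 times. Several of these lie close to the threshold, and scaling by the median gene put Cav1 at 0.495 and Emp2 at 0.490, past it, and Cavin2 at 1.93, short of it. For Emp2 the direction rested on the choice of cells, since single cells assigned by marker UMIs gave 378 CPM at P10 and 198 CPM at E18.5, a ratio of 1.91. AT1 markers summed to 1633 CPM in endothelial-like cells of P10 and 6797 CPM in those of E18.5, and their part in the Emp2 ratio was not tested.

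**Figure D2:**
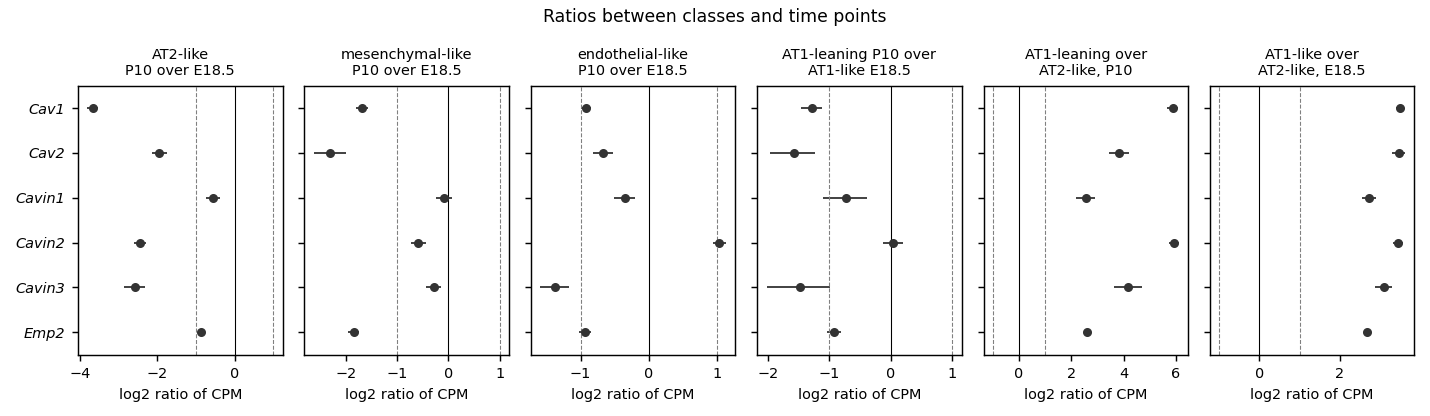
Log2 ratio of CPM for each gene in 6 comparisons, with the first-named class or time point on top of the ratio. Bars are exact conditional 95% intervals from counts, the solid line is no difference and dashed lines are 2 times. All 6 genes lay to the right of 2 times in both AT1 over AT2 comparisons, while Cavin2 was the 1 gene past 2 times higher at P10 in endothelial-like cells.

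The proportions between the genes varied with the class, which is read here only as a ratio of UMI counts compared across classes. Cav2 per Cav1 was 0.242 (0.181 to 0.320) in AT1-leaning and 0.252 (0.232 to 0.273) in endothelial-like cells of P10, and 0.296 in AT1-like and 0.212 in endothelial-like cells of E18.5. It was far lower in fibroblast-like cells of P10, at 0.0601 (0.0410 to 0.0854), and in the fibroblast and mesothelial-like cluster of E18.5, at 0.0743 (0.0549 to 0.0985). Those classes had the mesothelial marker Upk3b at 306 and 779 CPM, and its part was not tested. Fibroblast-like cells of E18.5, with 3.35 CPM of Upk3b, had Cav2 per Cav1 at 0.190 (0.162 to 0.223), overlapping endothelial-like cells (0.196 to 0.230). In ciliated-like cells of E18.5 it was 0.981 (0.877 to 1.10), and in club and ciliated-like cells 2.88 (1.82 to 4.70) at P10 and 1.01 (0.841 to 1.22) at E18.5.

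Cavin2 per Cavin1 was higher in endothelial and AT1 classes than in the mesenchyme, most clearly at P10. The ratio was 5.17 (4.78 to 5.60) in endothelial-like and 4.76 (3.66 to 6.28) in AT1-leaning cells of P10. Fibroblast-like cells of P10 had 0.824, pericyte or smooth muscle-like cells 1.05 and AT2-like cells 0.461. In AT1-like cells of E18.5 it was 2.81 and in endothelial-like cells 1.97 (1.78 to 2.18). Fibroblast-like cells of E18.5 overlapped the latter, with 1.55 (1.33 to 1.80), and pericyte or smooth muscle-like cells had 1.44. Other classes were high too, with 2.97 in club and ciliated-like cells of P10, and 2.38 in club-like and 2.17 in myeloid-like cells of E18.5. Cavin3 per Cavin1 was higher in pericyte or smooth muscle-like cells than in endothelial-like cells. It was 1.24 (1.06 to 1.47) at P10 and 1.40 (1.22 to 1.62) at E18.5 in pericyte or smooth muscle-like cells. In endothelial-like cells it was 0.397 at P10 and 0.809 (0.715 to 0.915) at E18.5. Fibroblast-like cells had 0.857 at P10. At E18.5 fibroblast-like cells (1.04, 0.886 to 1.23) and the fibroblast and mesothelial-like cluster (0.940, 0.758 to 1.16) overlapped endothelial-like cells.

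**Figure D3:**
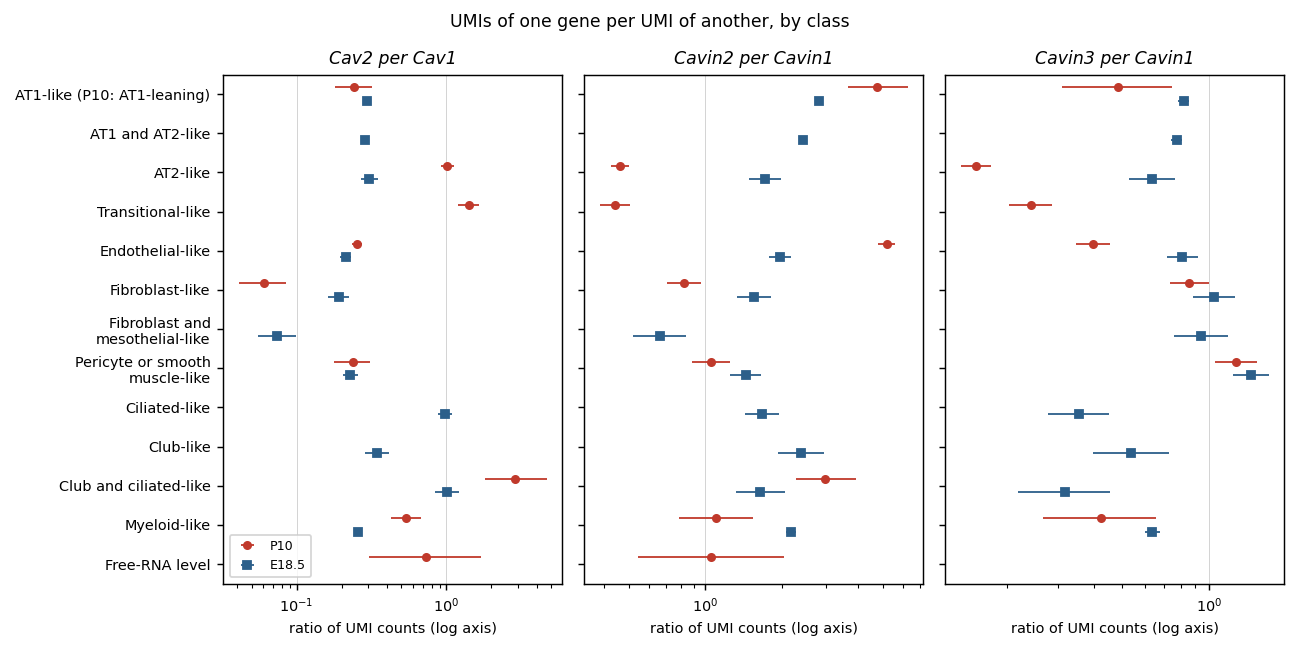
UMIs of 1 gene per UMI of another by class (log axis), with P10 as red circles, E18.5 as blue squares and exact conditional 95% intervals, leaving out classes with fewer than 10 UMIs of either gene. Cav2 per Cav1 was lowest in fibroblast-like cells of P10, Cavin2 per Cavin1 highest in endothelial-like and AT1-leaning cells of P10, and Cavin3 per Cavin1 highest in pericyte or smooth muscle-like cells.

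Detection in single cells was compared after thinning each cell to 3000 UMIs and leaving out shallower cells. In AT1-like cells of E18.5 (2979 of 3724 cells deep enough) Cav1 was detected in 93.6%, and the median cell had 4 of the 6 genes. In AT1-leaning cells of P10 (41 of 46 cells) Cav1 was detected in 61.0% (44.5 to 75.8) and the median was 3 genes. Endothelial-like cells had a median of 3 genes in both libraries, and Cav1 in 72.0% of them at P10 and 92.3% at E18.5. AT2-like cells had Cav1 in 1.98% at P10, near the 1.5% of the lymphoid-like cells, and in 20.9% at E18.5, where only 11 neutrophil-like cells were deep enough for a comparison and 4 of them had it. Without thinning, Cav1 was detected in 91.3% of AT1-leaning, 91.3% of endothelial-like and 7.78% of AT2-like cells (median 10320 UMIs) of P10, against 2.15% of lymphoid-like cells (median 3914.5 UMIs).

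At P10 Emp2 was in 38.8% of AT2-like cells after thinning, against 7.49% of lymphoid-like cells, and it accounted for most detection in that class, where 53.9% of cells had none of the 6 genes and 40.7% had 1. A caveolin and a cavin were found together in 65.9% of AT1-leaning, 71.4% of endothelial-like, 17.3% of mesenchymal-like and 0.372% of AT2-like cells of P10, and in 86.7% of AT1-like, 74.4% of endothelial-like, 41.2% of mesenchymal-like and 7.66% of AT2-like cells of E18.5. Within AT1-like cells of E18.5, Cav1 UMIs per thinned cell had a median of 3, a 10th to 90th percentile of 1 to 6 and a highest value of 16, with a variance of 1.52 times the mean. Cells with a Cav1 UMI had a Cav2 UMI in 61.4% (59.6 to 63.2), against 42.9% of cells without one. In mesenchymal-like cells of P10, Cavin1 accompanied Cav1 in 40.6% (30.7 to 51.1) and was found in 23.0% of cells without Cav1, while Cav2 was found in 5.21% of cells with Cav1 and 5.06% of cells without it.

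Whether the levels outside AT1 cells followed AT1 RNA was read from Hopx, an AT1 marker. Cav1 per Hopx UMI was 0.221 (0.218 to 0.224) in AT1-like cells of E18.5, and between 0.186 and 0.295 in cells with both programmes (0.208), AT2-like cells (0.186), myeloid-like cells (0.246) and neutrophil-like cells (0.295, 0.177 to 0.475). Endothelial-like cells (0.650), pericyte or smooth muscle-like cells (0.363), fibroblast-like cells (0.327) and the fibroblast and mesothelial-like cluster (1.12) had more Cav1 per Hopx, and ciliated-like (0.164) and club-like (0.142) cells less. At P10 the same ratio was 0.366 in AT1-leaning, 0.411 (0.377 to 0.447) in AT2-like and 0.357 in transitional-like cells. It was 0.174 (0.0936 to 0.304) in lymphoid-like cells, 3.35 in endothelial-like cells and 7.42 in fibroblast-like cells. Emp2 per Hopx was 0.397 in AT1-like cells of E18.5 and between 0.307 in club-like and 0.593 in AT2-like cells over the other classes of that library, whereas at P10 it was 0.848 in AT1-leaning cells and 9.20 (8.77 to 9.65) in AT2-like cells.

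**Figure D4:**
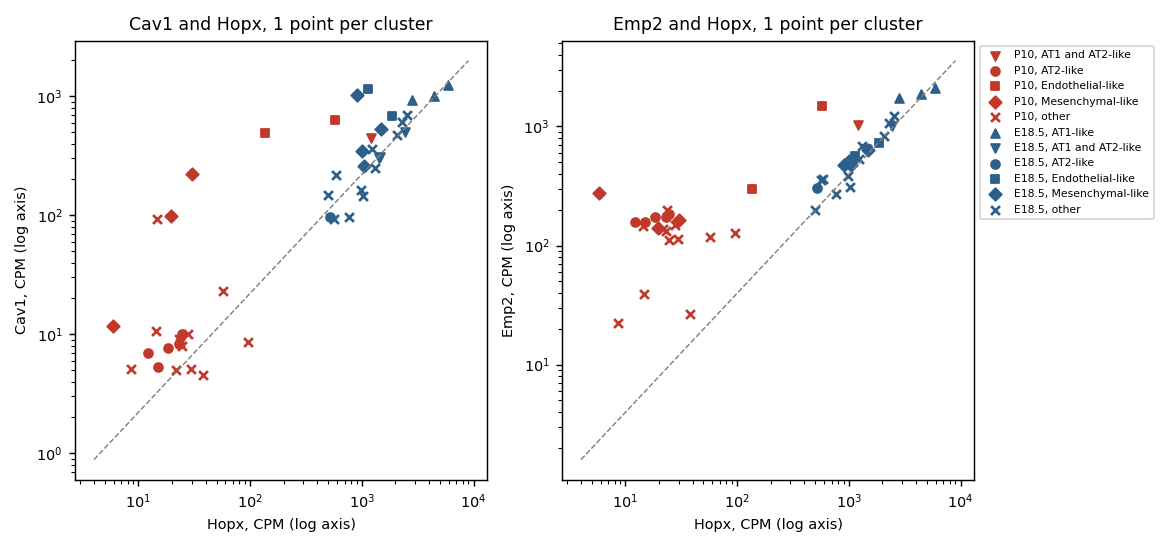
Cav1 (left) and Emp2 (right) against Hopx in CPM, both axes log, 1 point per cluster, with P10 in red and E18.5 in blue, and the AT1-leaning cluster as the red downward triangle. The dashed line is the proportion in AT1-like cells of E18.5, and E18.5 clusters lay near it for Emp2, while endothelial-like and several mesenchymal-like clusters lay above it for Cav1.

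At P10, 1 myeloid-like cluster of 146 cells stood out in the caveolins and not in Cavin1 or Cavin3. This cluster was led by Chil3 and also expressed Marco, genes known from alveolar macrophages, and it was singled out after its values were seen. Its Cav1 level was 92.6 CPM (78.6 to 108), against 15.5 CPM (12.0 to 19.7) in the other 260 myeloid-like cells and 4.75 CPM in lymphoid-like cells. Cav2 was at 43.9 CPM (34.5 to 55.1), against 10.6 CPM in the other myeloid-like cells. Cavin1 was at 5.94 CPM (2.85 to 10.9), not above the 6.34 CPM of lymphoid-like cells, Cavin3 at 2.97 CPM (theirs 2.22 CPM), Cavin2 at 12.5 CPM (7.72 to 19.1, theirs 6.65 CPM) and Hopx at 14.8 CPM (theirs 27.2 CPM). Cav1 UMIs were unevenly spread, with 44 of the 146 cells holding any, the highest cell 33, and the top 10 cells 68.6% of all. In the 7 cells with at least 5 Cav1 UMIs no UMI of Cavin1 or Hopx was found among 86390 UMIs, with 2 UMIs of Emp2 and 2 of Pecam1. At the levels of the whole cluster so few UMIs would hold hardly any Cavin1 or Hopx, so this absence cannot tell these cells from the rest.

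A cluster of 45 endothelial-like cells of P10, led by Prickle2, Piezo2 and Scn7a with Car4 and Ednrb among its leading genes, differed from the other 367 endothelial-like cells in Cav2 and Emp2. Cav2 was at 307 CPM, against 120 CPM in the other cluster, 2.56 times (1.90 to 3.38), and Emp2 was at 1499 CPM, against 298 CPM, 5.04 times (4.41 to 5.75). Those were 2 of the 6 genes, against 17.2% of 10403 genes at least 2 times higher and 19.1% lower. Cavin2 was 1.79 times higher, and Cav1 (1.29), Cavin3 (1.19) and Cavin1 (1.04) were closer to level. The cluster was shallower, with a median of 3715 UMIs against 11413, and held less AT2 marker RNA, 2.60% against 7.35% of UMIs. Its Hopx was 573 CPM, against 136 CPM in the other cluster. Pmp22 was at 2449 CPM, against 319 CPM (7.68 times), and Plvap, which forms the diaphragms of endothelial caveolae, had 1 UMI (5.79 CPM), against 312 CPM, a ratio of 0.0186 (0.00047 to 0.104).

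Other genes of caveolae and related coats were read from lists. Of 10 genes for caveola assembly and the neck, 7 were measured in the AT1-like over AT2-like comparison of E18.5 and 4 were at least 2 times higher, against 15.8% of all genes. Ehd2, an ATPase of the caveola neck, had 193 CPM in AT1-like and 20 CPM in AT2-like cells (9.66 times), Cavin4 was 4.18 times, Ehd1 3.34 times and Pacsin2, a membrane-curving neck protein, 2.58 times higher. In the P10 comparison of AT1-leaning with AT2-like cells, 2 of 6 measured genes were higher, against 10.4% of all genes, Ehd2 by 11.5 times (8.65 to 14.9) and Ehd1 by 2.72 times. The PMP22 and EMP family had 3 of 3 measured genes higher in AT1 classes of both libraries, with Pmp22 at 395 CPM in AT1-leaning and 13.5 CPM in AT2-like cells of P10 (29.2 times). Among 9 clathrin coat genes none was higher by 2 times in AT1-leaning cells of P10, 2 (Ap2a2 and Cltb) were higher in AT1-like cells of E18.5, a share near the 15.8% of all genes, and none differed by 2 times between P10 and E18.5 in AT2-like, mesenchymal-like or endothelial-like cells. The median log2 ratio in the E18.5 comparison was 1.37 for the caveola assembly list and 0.76 for the clathrin list, against 0.33 over all genes.

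In endothelial-like cells of P10 set against E18.5, Ehd4 was at 639 CPM at P10 and 108 CPM at E18.5 (5.93 times, 5.35 to 6.59). Ehd3 had 12.3 CPM at P10 and 3.78 CPM at E18.5, and Ehd2 had 57.3 CPM at P10 and 132 CPM at E18.5 (ratio 0.433). Plvap was at 303 CPM at P10 and 108 CPM at E18.5 (2.81 times), and Nos3, the endothelial nitric oxide synthase that binds caveolin-1, at 21.9 CPM at P10 and 20.8 CPM at E18.5 (1.05). The 4 Src family kinases, which phosphorylate caveolin-1, and the 2 flotillins, which mark other membrane domains, did not reach 2 times in this class.

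For each gene the 5 most similar genes outside the set described here were found, as a description. Similarity was Pearson's correlation of log2(CPM + 10) over the 44 clusters with at least 50 cells in both libraries, among 7820 genes. Within the set, Cavin1 and Cavin3 had r = 0.954, and Cav1 and Cavin2 had r = 0.948. Cavin3 was thus closer to Cavin1 than to any gene named for it below. Cav1 was most like Aqp1, a water channel of endothelium (r = 0.973), then Fbln5, Pmp22, Ehd2 and Rab12. Cavin2 shared Pmp22 and Aqp1 with it and was otherwise most like Mboat2, Lims2 and Pxdn. Cavin1 was most like Igfbp7 (r = 0.961), Ehd2, Schip1, Sparc and Rab12, and Cavin3 most like Tgfb2 (r = 0.95), Igfbp7, the collagen chaperone Serpinh1, Ehd2 and Sparc. Cav2 was most like Trim16 (r = 0.939), Clic5, Wars, Ajuba and Chmp5, and Emp2 most like Tspan15 (r = 0.980), the AT1 marker Ager, Tinagl1, Tspan8 and Serpinb6b. The clusters of a library share free RNA and a library preparation, which all these values hold.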

How the data were processed

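Single-cell libraries of 2 time points were used, 1 each. The authors deposited raw UMI counts, the output of Cell Ranger 7.0.1, per the file headers. The genome build was mm10 and Seurat 4.0.0 is named with no role, per the submitters' processing notes. The sources used here do not state the handling of introns. The labels name a v2 kit.

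Total depth was 171205348 UMIs in 14503 barcodes at P10 and 137837590 UMIs in 12739 barcodes at E18.5. The filter left out 417 barcodes at P10 and 712 at E18.5. Python 3.11.15, scanpy 1.11.5 and leidenalg 0.10.2 were used, clustering each library on 30 principal components of 2000 variable genes (15 neighbours, Leiden resolution 1). Scrublet marked 1 cell at P10 (0.0071%) and 2 at E18.5 (0.0166%), too few for the caller to have worked, and doublets were left in.

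Clusters were named by markers raised at least 3 times in at least 25% of cells. A non-alveolar name needed 3 raised markers and 35% of the list, and an alveolar name a scaled level of 0.5, or 0.25 for the other alveolar class to count as mixed. This rule was set after the clusters were seen. Class sums carry exact Poisson intervals, ratios exact conditional binomial intervals and shares Clopper-Pearson intervals, at 95%. A gene was measured at 10 CPM in either sum and called at 2 times. The interval was tested on simulated Poisson counts, the assumption it is built on. That test therefore says nothing on variation between cells or libraries. The members, lists and comparisons were chosen with earlier results of these data known. Named genes were the 6 genes, the list members and, for each of the 6, the 5 most similar genes outside the 6. Promoter sequences came from RefSeq, and 5 of the 6 genes matched.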

Additional observations from a re-analysis of the deposited data

Results flagged for a closer look

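Cavin2 moved in opposite directions between the time points in different classes. It was 2.06 times higher at P10 than at E18.5 in endothelial-like cells, with 637 CPM at P10 and 310 CPM at E18.5, and lower at P10 in AT2-like cells, with 8.99 CPM at P10 and 49.4 CPM at E18.5, a ratio of 0.182. The difference between the classes was not tested, since each time point has 1 library. The AT2-like level at E18.5 was not above the free-RNA level of 64.2 CPM. With median scaling the endothelial-like ratio was 1.93.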

How the results depend on the processing

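No paired analysis was possible because each time point has 1 library. For the same reason no replicate could be left out. Of 6 counts of called genes, 3 changed by more than 1.5 times under some setting. With the free-RNA level subtracted, 0 of the 6 genes were called lower in AT2-like cells at P10. With median-ratio scaling, 3 genes (Cav1, Cavin3 and Emp2) were called lower in endothelial-like cells at P10. With single cells assigned by marker UMIs, 0 genes were called lower in AT1-leaning cells of P10 than in AT1-like cells of E18.5. The other settings kept these counts within 1.5 times where a value could be had. Where a ratio could be formed, none called at 2 times changed direction, and of 316 ratios under other settings 206 lay within the counting interval of the main value. With the free-RNA level subtracted, Cav1, Cav2 and Cavin2 of AT2-like cells had no ratio between time points. Their remainders were 2.78, 4.12 and 2.34 CPM at P10 and nothing at E18.5, the opposite order to the main calls. E18.5 had 0 AT2-like cells at resolution 0.5 and 3 under joint clustering, and P10 had 4 AT1-leaning cells under joint clustering and 0 once the highest doublet scores were removed, so these gave no value. Free-RNA levels at E18.5 rest on 65 shallow cells, which limits every statement set against them.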
